A study of Rattus norvegicus with 8 samples.

Results

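The mitochondrial carrier family comprises the proteins of gene symbols that start with Slc25a, together with the uncoupling proteins Ucp1, Ucp2 and Ucp3. Its members were taken as all array probes whose accession maps to one of these rat symbols, and 51 probes for 41 genes were found, out of 15168 rat gene symbols on the array. A single probe was present for 31 of the 41 genes, and 10 genes had 2 probes. A further 10 carriers that were looked for, the aspartate and glutamate carriers Slc25a12 and Slc25a13 and the glutathione carrier Slc25a40 among them, had no probe matched by accession and were not analysed here. The study measured total RNA from the livers of male rats aged 22 weeks on single-colour arrays. One group of 5 samples came from rats fed a high fat diet for 14 weeks and labelled as having non-alcoholic fatty liver disease, and the other of 3 samples from control rats on standard chow over the same time. Strain, diet composition and any genetic modification were not given in the sources used here, nor whether each sample came from a different animal, so each p-value covers no more than the spread seen among the 8 samples.

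Mitochondrial carriers are small proteins that span the inner mitochondrial membrane and exchange metabolites, nucleotides, cofactors and ions between the cytosol and the matrix. In liver they feed the urea cycle, gluconeogenesis, fatty acid oxidation and the export of citrate for lipid synthesis, and they move ADP and phosphate to ATP synthase. They are made in the cytosol and brought to the inner membrane by the small Tim chaperones and the TIM22 translocase. The uncoupling proteins belong to the same family, and Ucp1 lets protons leak back into the matrix in brown fat.

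No carrier passed the test between diets. Values below are log2 processed signals relative to the 75th percentile of the same array, and each difference is the high-fat mean minus the chow mean, fitted with limma over 22871 features with Benjamini-Hochberg adjustment and a threshold of 0.05. Of the 40 carriers bright enough to be tested, 0 were called higher and 0 lower, where 3.56% of all features were called (3.07% higher and 0.490% lower). At an unadjusted p under 0.05 there were 6 carriers, where 20.2% of all features lay below that level. Slc25a54, Ucp3 and Slc25a30 were the 3 with a positive difference (10.8% of all features), and Slc25a11, Slc25a39 and Slc25a21 the 3 with a negative one (9.37%). Slc25a54 and Ucp3 were each above background on 4 high-fat arrays and no chow array. They passed the filter through the high-fat arrays alone, so their p-values are no evidence of a diet difference. Differences ran from -0.75 to 1.45 with a median of -0.10, beside -0.0054 over all features. They were below 0 for 24 of the 40 carriers, beside 50.5% of all features, and 32 of the 40 lay within 0.5 of 0 in either direction. Because whole liver was measured, fewer cells of a type and less RNA per cell cannot be told apart.

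The arrays themselves differed between diets, and this touches every value below. The 75th percentile of the processed signal was 856 ± 134 intensity units on the high-fat arrays and 379 ± 156 on the chow arrays (SD, n = 5 and 3; two-sided exact permutation test, p = 0.0179, the smallest the 56 splits allow). Well above background were 79.0% to 92.7% of probes on the high-fat arrays and 66.9% to 71.7% on the chow arrays. The 3 chow arrays lay on a slide of their own, read here as the arrays that share 1 scan identifier, so slide and diet cannot be told apart for them. The high-fat arrays lay on 2 other slides, with high-fat arrays 1 and 4 on slide 1 and high-fat arrays 2, 3 and 5 on slide 2. Of the 8 hepatocyte markers, albumin among them, 8 were above background on all arrays, so the tissue read as liver.

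Upstream sequences are shown for Slc25a11, Slc25a39 and Slc25a21, the 3 carriers with a negative difference and the smallest unadjusted p. Each run is the 250 bases before the RefSeq gene start on the GRCr8 assembly, on the minus strand and written 5′ to 3′, and capitals mark on either strand the GC box to which Sp1-type factors bind (GGGCGG) and the box to which NF-Y binds (CCAAT). The windows lie at chr10:55859061-55859310, chr10:87866974-87867223 and chr6:80437721-80437970.
Slc25a11: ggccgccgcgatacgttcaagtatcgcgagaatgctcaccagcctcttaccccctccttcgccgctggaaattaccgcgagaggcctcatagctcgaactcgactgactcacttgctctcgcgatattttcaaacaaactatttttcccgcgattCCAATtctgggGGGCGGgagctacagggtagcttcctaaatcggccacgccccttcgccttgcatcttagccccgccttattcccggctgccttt
Slc25a39: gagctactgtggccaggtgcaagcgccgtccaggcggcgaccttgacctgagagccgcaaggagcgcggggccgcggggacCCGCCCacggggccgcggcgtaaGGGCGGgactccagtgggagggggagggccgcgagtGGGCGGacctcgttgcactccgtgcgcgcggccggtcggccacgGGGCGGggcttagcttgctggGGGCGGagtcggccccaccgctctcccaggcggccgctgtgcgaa
Slc25a21: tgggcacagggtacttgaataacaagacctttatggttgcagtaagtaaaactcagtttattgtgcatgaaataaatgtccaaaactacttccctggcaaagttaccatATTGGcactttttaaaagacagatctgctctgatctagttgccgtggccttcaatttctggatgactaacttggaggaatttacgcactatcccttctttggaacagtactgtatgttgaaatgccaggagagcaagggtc
Slc25a39 held 5 GC boxes and no CCAAT box in a window of 76.4% G and C. Slc25a11 held 1 of each at 56%, and Slc25a21 held 0 GC boxes and 1 CCAAT box at 40.8%. Of the 40 tested carriers, 35 had a window in the table. The GC box was found in 21 of the 35, beside 30.5% of all 33469 windows of the same length, and the CCAAT box in 19 of the 35, beside 34.0%. The motif TGACGT, the core of the cyclic AMP response element, was in 5 of the 35 (6.95% of all windows), and CCGGAAG, a site for ETS factors such as Gabpa, in 6 (7.27%). The core motif bound by Nrf1 was in 0 of the 35 (3.75%). The motifs were searched on both strands, none of the 5 lies within another, and a match is a description of letters only.

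**Figure D1:**
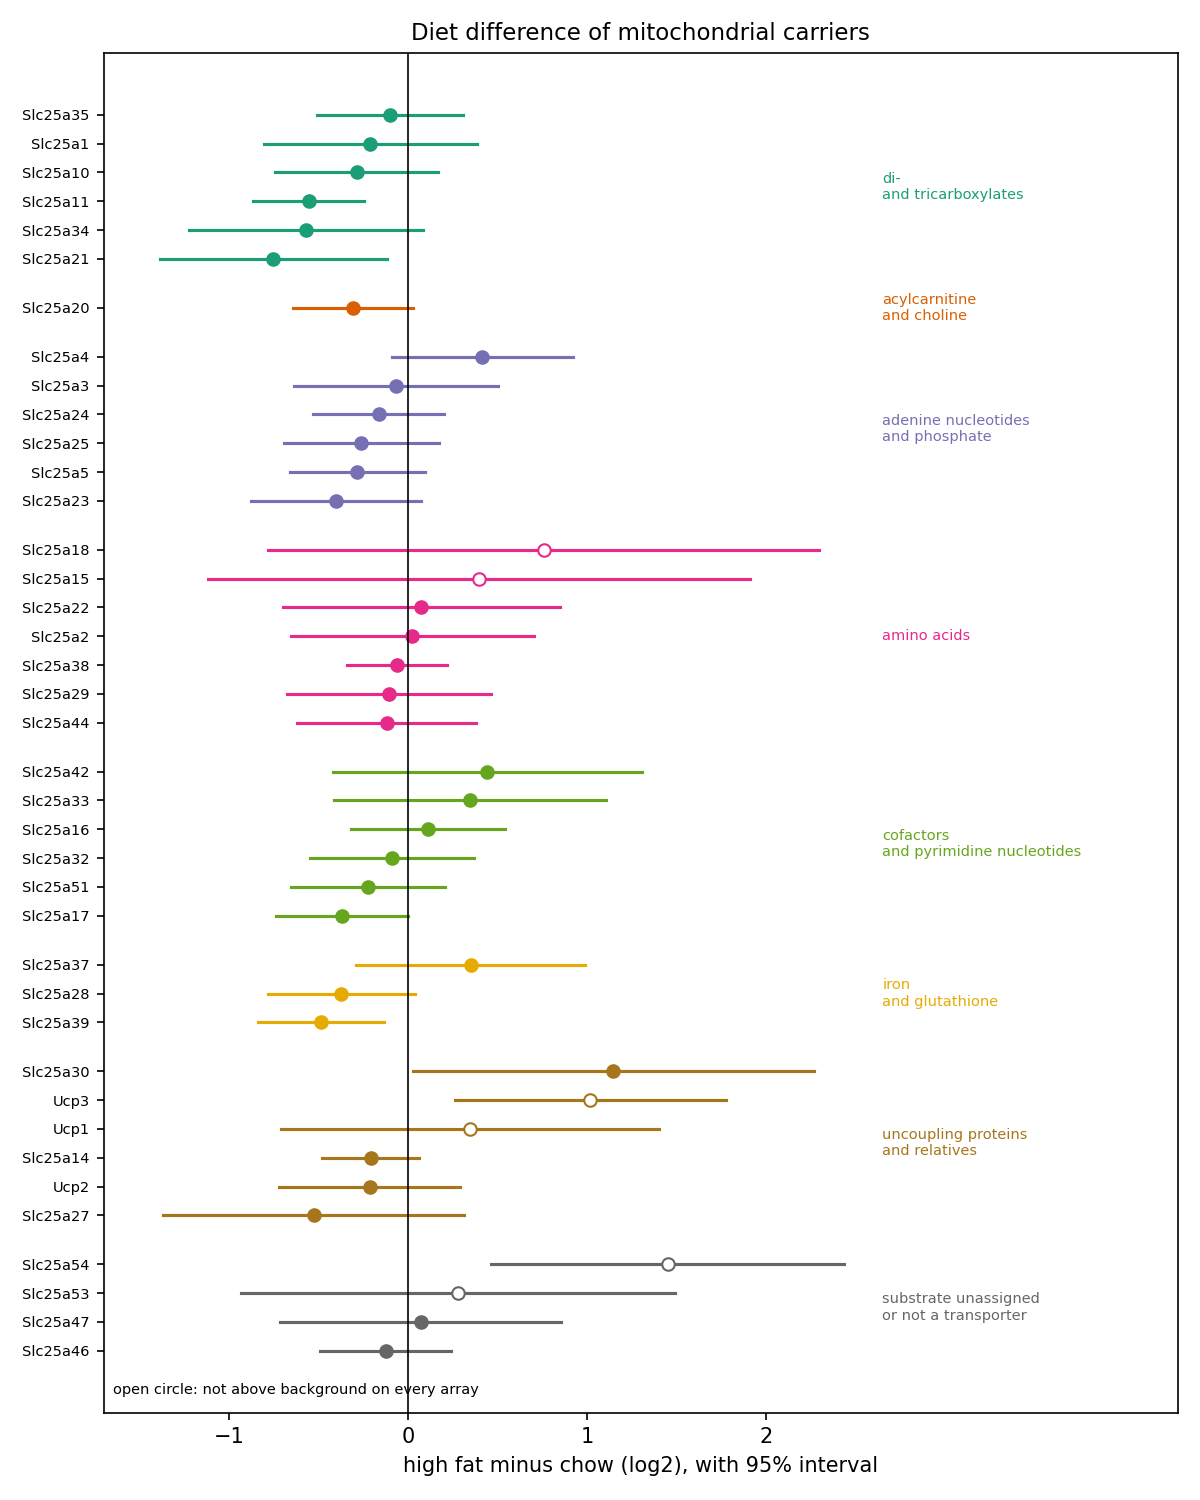
Difference between diets in log2 signal (high fat minus chow, 5 against 3 arrays) for the tested carriers, grouped by substrate. Circles are fitted differences, lines their 95% intervals without adjustment for the number of features, and open circles the 6 carriers not above background on every array; the 6 carriers of di- and tricarboxylates all lie below 0, and the widest intervals belong to open circles and Slc25a30.

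The carriers of di- and tricarboxylates all had negative differences, 6 of 6, with a median of -0.42, and none passed the test. Slc25a11, which exchanges 2-oxoglutarate for malate in the malate-aspartate shuttle, had the smallest adjusted p of the family. In the order of their array numbers, the high-fat samples read 2.00, 2.03, 2.19, 2.26 and 2.16 and the chow samples 2.73, 2.54 and 2.78 in log2 signal; the same order is kept below. Every high-fat array read below every chow array, and both high-fat slides read alike, at 2.13 on slide 1 and 2.13 on slide 2. The difference was -0.55 ± 0.14 (SE; 1.47-fold lower; 95% interval -0.87 to -0.25; limma adjusted p = 0.0684). Slc25a21, the oxodicarboxylate carrier, read -1.38, -2.02, -2.49, -1.44 and -2.32 against -1.22, -1.20 and -1.11. The diets did not overlap, but high-fat arrays 1 and 4 lay close to chow and the 3 arrays of slide 2 well below it. Its difference was the lowest of the family, -0.75 ± 0.28 (limma adjusted p = 0.181). It came to -1.101 with the slide 2 arrays alone as the high-fat group (adjusted p = 0.00979), where 12.7% of all features were called.

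Slc25a1, the citrate carrier that supplies acetyl units for fatty acid synthesis, read 0.02, 0.11, -0.33, 0.15 and 0.17 on the high-fat arrays and 0.92, -0.10 and -0.11 on the chow arrays. Chow array 1 stood above the other 7 arrays, and the difference of -0.21 (limma adjusted p = 0.716) turned to 0.13 without it. Slc25a10, which exchanges malate or succinate for phosphate, read 2.30, 2.18, 1.66, 2.08 and 1.95 against 2.56, 1.99 and 2.41. The diets overlapped, with a difference of -0.29 (adjusted p = 0.468). Slc25a34, a relative of the oxaloacetate carrier of yeast, read -1.86, -1.72, -1.79, -2.62 and -1.91 against -1.97, -1.36 and -0.90. High-fat array 4 read lowest, and the difference was -0.57 (adjusted p = 0.308). Its neighbour in sequence, Slc25a35, differed by -0.10.

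Slc25a20, the carnitine and acylcarnitine carrier that brings long-chain acyl groups to fatty acid oxidation, read 1.79, 1.67, 1.76, 1.51 and 1.45 on the high-fat arrays and 1.94, 2.08 and 1.81 on the chow arrays. All high-fat arrays lay below all chow arrays, by a mean of -0.31 ± 0.15 (limma adjusted p = 0.283). The gap between high-fat array 1 and chow array 3 was small beside the spread within each diet.

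Among carriers of adenine nucleotides and phosphate, 5 of 6 differences were negative, with a median of -0.21, and the diets overlapped for each member. Slc25a3, which brings phosphate to the matrix for ATP synthesis, read 5.20, 4.53, 4.405, 5.37 and 4.59 against 4.84, 4.80 and 5.03. The chow arrays fell between the 2 high-fat slides, and the diet difference was -0.069 (limma adjusted p = 0.913). The ADP/ATP carriers had differences of opposite sign. Slc25a4, the form typical of heart and muscle, read 0.66, 0.07, -0.19, 0.33 and 0.63 on high fat and 0.04, -0.25 and -0.14 on chow. Its difference was 0.41 ± 0.22 (adjusted p = 0.338). Slc25a5, the form common to most tissues, read 3.63, 3.53, 4.02, 3.90 and 3.95 against 4.04, 4.25 and 3.97. Its difference was -0.28 ± 0.17 (adjusted p = 0.383), and the other Slc25a5 probe gave -0.14. The calcium-regulated carriers of ATP-Mg and phosphate were all negative, Slc25a23 at -0.40, Slc25a24 at -0.17 and Slc25a25 at -0.26. Slc25a25 read 5.27, 5.07, 4.73, 5.45 and 5.19 against 5.53, 5.48 and 5.19, with overlapping diets. Slc25a41, of the same kind, was well above background on no array and was not tested.

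The amino acid carriers had a median difference of 0.023, with 3 of 7 below 0 and all diets overlapping. Slc25a22, which brings glutamate into the matrix, read 5.01, 4.08, 3.70, 5.03 and 3.86 on high fat and 4.31, 4.22 and 4.26 on chow. The 3 chow arrays lay close together while the high-fat arrays fell into a high pair on slide 1 and a low trio on slide 2. The diet difference of 0.073 (limma adjusted p = 0.934) averaged over that split. Slc25a15, the ornithine carrier of the urea cycle, was dim, with 5 high-fat and 2 chow arrays above background. It read -4.79, -4.56, -2.24, -2.89 and -2.55 against -3.92, -2.97 and -4.52, and the spread within each diet exceeded the difference of 0.40 ± 0.66, which ran from 0.035 to 0.81 with 1 array left out. Slc25a18, a second glutamate carrier, was above background on 1 chow array. It read -4.38, -5.28, -5.97, -5.02 and -3.66 against -4.31, -7.11 and -5.44, and its difference was 0.76 ± 0.68, which came to 0.012 without chow array 2 and 1.42 without chow array 1. The basic amino acid carriers Slc25a2 and Slc25a29, the glycine carrier Slc25a38 and the branched-chain amino acid carrier Slc25a44 differed by 0.023, -0.11, -0.062 and -0.12. The dimmer Slc25a44 probe gave the opposite sign, at 0.28.

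Of the carriers of cofactors and pyrimidine nucleotides, 3 of 7 had a difference below 0. Slc25a42, the carrier of coenzyme A, read 2.54, 1.38, 1.16, 2.27 and 0.96 against 1.47, 1.02 and 1.18. High-fat arrays 1 and 4 were high and the other 3 overlapped chow, so the difference was 0.44 ± 0.38 (limma adjusted p = 0.570). Slc25a51, the carrier of NAD, read 1.47, 1.34, 1.11, 1.66 and 1.72 against 1.92, 1.45 and 1.69, a difference of -0.22 (adjusted p = 0.561). Slc25a17, a carrier of coenzyme A, FAD and NAD in the peroxisomal membrane, was lower on all high-fat arrays (2.71 to 2.96) than on all chow arrays (3.06 to 3.58), by -0.37 (adjusted p = 0.247). Slc25a33, which carries pyrimidine nucleotides, differed by 0.34, Slc25a16 by 0.11, and Slc25a32, linked to folate and FAD, by -0.089. The dimmer probes of Slc25a42, Slc25a33 and Slc25a16 gave the opposite sign, at -0.23, -0.20 and -0.18.

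In the group of iron and glutathione carriers, 2 of 3 did not overlap between diets, both lower on high fat, beside 9.18% of all features that did not overlap and were lower. Slc25a39, which imports glutathione into mitochondria, read 2.53, 2.26, 2.14, 2.51 and 2.30 on high fat and 2.93, 2.66 and 2.92 on chow. All high-fat arrays were lower, by -0.49 ± 0.15 (1.40-fold; limma adjusted p = 0.128), and the second Slc25a39 probe gave -0.57. The iron importers, or mitoferrins, were Slc25a28 and Slc25a37. Slc25a28 was lower by -0.37 (adjusted p = 0.288), with 1.35 to 1.82 on high fat and 1.87 to 2.38 on chow, but its dimmer probe gave -0.052. Slc25a37, the mitoferrin of red cell precursors, read -0.45, -1.20, -1.59, -0.76 and -1.54 against -1.36, -1.34 and -1.67, with a difference of 0.35 (adjusted p = 0.543). The 5 erythroid markers tested had 0 calls, and their mean level about the average of all arrays ran from -0.25 to 0.10 on high fat and -0.15 to 0.44 on chow.

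The uncoupling proteins and their relatives gave 3 differences above and 3 below 0. Ucp2, the form expressed in macrophages and in fatty hepatocytes, read -1.36, -0.98, -0.82, -0.73 and -0.34 on high fat and -0.59, -0.76 and -0.55 on chow. The diets overlapped, and the difference was -0.21 ± 0.22 (limma adjusted p = 0.651, 95% interval -0.72 to 0.29). The interval holds no adjustment and covers no difference between slides, which cannot be told apart from diet for the chow arrays. Macrophage markers had 0 of 10 calls, and their mean level ran from -0.29 to 0.31 on high fat and -0.13 to 0.40 on chow. Ucp1 was well above background on 3 high-fat arrays and no chow array. It read -6.42, -4.88, -4.31, -6.21 and -5.16 against -5.79, -5.67 and -5.77, so that chow again lay between the high-fat slides, and its difference was 0.35 (adjusted p = 0.738). Of the 4 adipocyte markers tested, 0 were called. Ucp3, known from skeletal muscle, was above background on 4 high-fat arrays and no chow array and read -5.24, -5.86, -5.36, -4.66 and -5.29 against -5.57, -6.77 and -6.56. Its difference was 1.02 ± 0.33 (adjusted p = 0.138). Beside it, 2 of the 3 skeletal muscle markers tested were called higher, where 3.07% of all features were. The third, Mb, was above background on 5 high-fat and 3 chow arrays and differed by -0.18 (limma adjusted p = 0.767). Ckm (creatine kinase, muscle type; adjusted p = 0.0029) and Acta1 (skeletal actin; adjusted p = 0.0355) were above background on 5 high-fat arrays and no chow array, and so passed the filter through the high-fat arrays alone. With no chow value taken below the dimmest detected probe of its array, Ckm was at least 3.31-fold and Acta1 at least 1.43-fold higher in these values. Both calls were lost with slide as a random block (limma adjusted p = 0.0779 and 0.474). They were also lost with normexp background correction, where Ckm differed by 0.15 and Acta1 by -0.31 in log2 signal. With normexp and quantile normalization Ckm differed by 0.68 and Acta1 by 0.28, so the bounds hold only for the processing used here. The mean level of the 3 markers ran from 0.16 to 0.83 on high fat and -0.71 to -0.58 on chow, and their part in the Ucp3 and Slc25a4 values was not tested.

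The relatives of the uncoupling proteins had differences of both signs. Slc25a30, found mainly in kidney, read -0.996, -0.93, 0.81, -0.52 and -0.36 on high fat and -2.33, -0.60 and -1.71 on chow. Chow array 2 fell within the high-fat range, and the difference was 1.15 ± 0.49 (2.21-fold; limma adjusted p = 0.239). Slc25a27, also called Ucp4 and known from brain, read -4.57, -3.58, -3.19, -4.50 and -3.40 against -2.87, -3.62 and -3.47, a difference of -0.53 (adjusted p = 0.472). Slc25a14, also called Ucp5, varied little within a diet, at -1.32 to -1.22 on high fat and -1.11 to -1.05 on chow, a difference of -0.21 ± 0.12 (adjusted p = 0.365).

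Of the 4 carriers with no assigned substrate, Slc25a54 had the largest difference of the family. It read -6.18, -5.45, -4.63, -5.41 and -4.77 on high fat and -7.26, -7.12 and -5.83 on chow, a difference of 1.45 ± 0.43 (limma adjusted p = 0.112). It was well above background on 4 high-fat arrays and no chow array, and on chow the dimmest probe above background sat at -5.09 to -4.55, above most of its high-fat values. For this reason no lower bound of a fold above 1 could be given for it, nor for Slc25a53, Ucp1 or Ucp3, the other carriers above background on no chow array. Slc25a47, a carrier largely restricted to liver, read 5.16, 4.53, 3.90, 4.54 and 3.68 against 4.12, 4.03 and 4.73, with overlapping diets and a difference of 0.070. Slc25a46, an outer membrane protein that acts in mitochondrial shape, differed by -0.12, and Slc25a53 by 0.28.

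**Figure D2:**
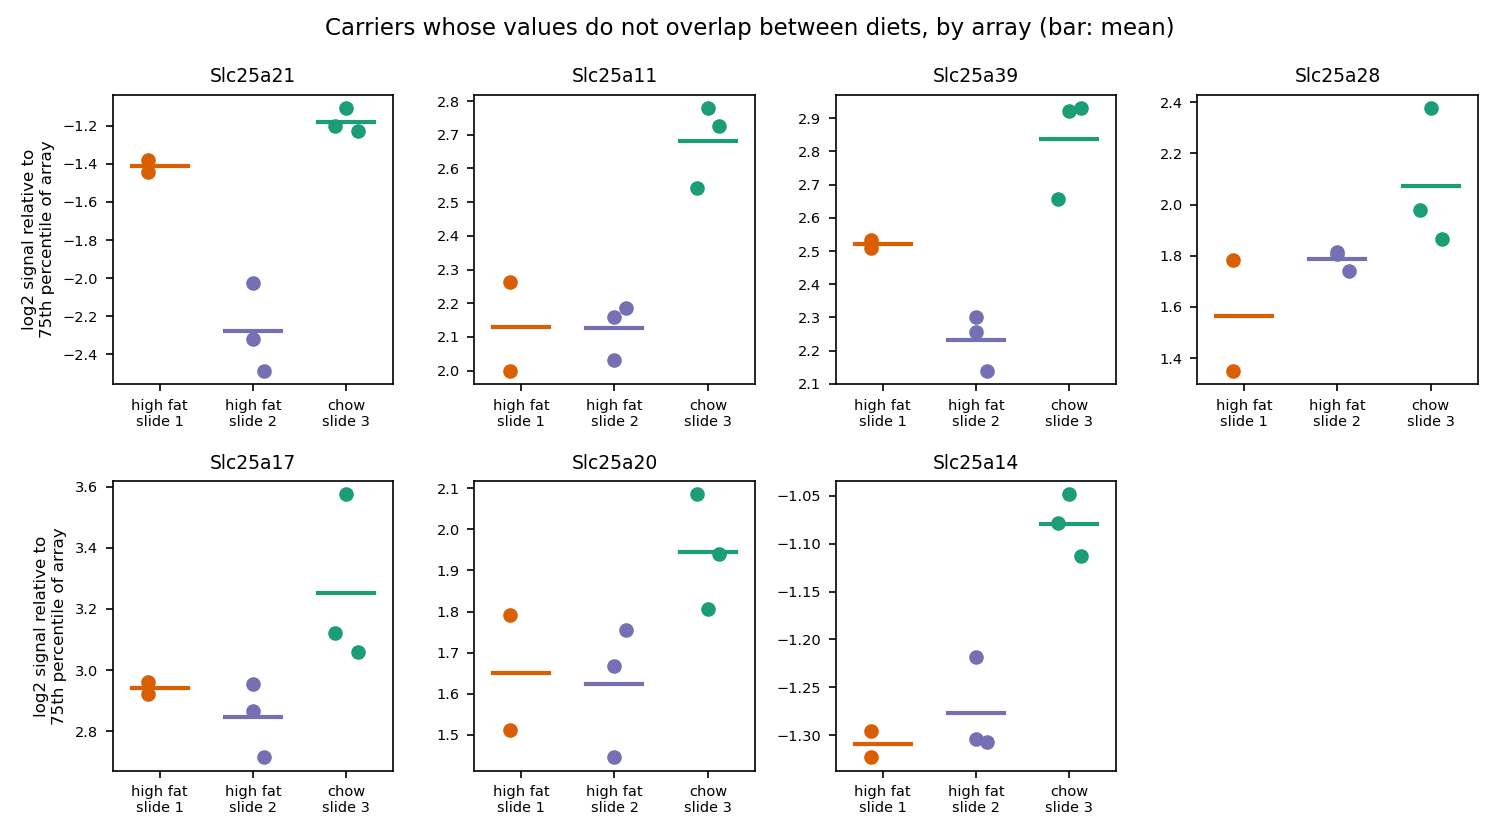
Log2 signal on each array, relative to the array's 75th percentile, for the 7 carriers whose diets did not overlap, with high-fat arrays split by slide. Points are arrays (2, 3 and 3) and bars are means; all 7 are lower on high fat, and Slc25a21 and Slc25a39 read lower on slide 2 than on slide 1, where Slc25a11 reads 2.13 on both.

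Counted over the family, 7 carriers were lower on every high-fat array than on any chow array and 0 were higher, where 17.0% of all features did not overlap (9.18% lower and 7.81% higher). The 7 were Slc25a11, Slc25a14, Slc25a17, Slc25a20, Slc25a21, Slc25a28 and Slc25a39. The share of such features varied with brightness over the whole array. When features were ranked by mean signal into 10 bins of equal size, the median diet difference fell by bin from 0.51 in the dimmest to -0.24 in the brightest, and non-overlapping lower features made up 0.438% of the dimmest bin, 22.6% of bin 9 and 23.4% of bin 10. Of the 40 carriers, 17 lay in bins 9 and 10, with 5 of the 7 non-overlapping carriers among them. Against the median of its own bin, a carrier's difference was lower in 24 of 40 and the median gap was -0.059. The part of brightness in the counts of lower carriers was not tested further.

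**Figure D3:**
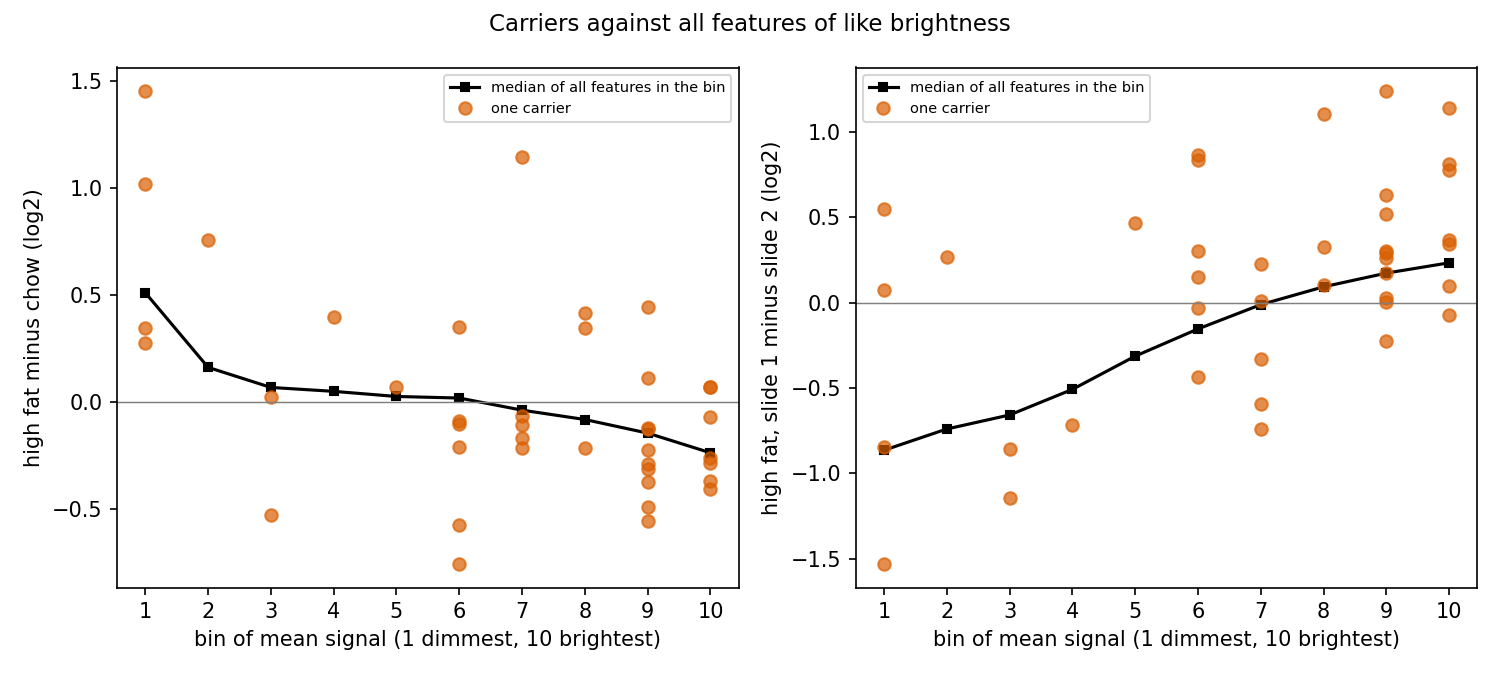
Left, diet difference (high fat minus chow, log2) and right, difference between the high-fat slides (slide 1 minus slide 2, log2) of the 40 carriers against the bin of mean signal, 1 dimmest and 10 brightest. Circles are carriers and squares the median of all features in the bin, which runs from 0.51 to -0.24 on the left and from -0.86 to 0.23 on the right; carriers lie on both sides of each line.

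Within the high-fat group, 13 of 40 carriers differed between the slides, in a limma contrast of high-fat arrays 1 and 4 against 2, 3 and 5 that was added after the data were seen. Of all features 26.2% differed, 5.64% higher on slide 1 and 20.6% lower. Among the carriers 9 were higher on slide 1 and 4 lower, and 27 of 40 lay above the median of their brightness bin. Among those higher on slide 1 the largest were Slc25a42 (1.24; adjusted p = 0.00511), Slc25a22 (1.14; adjusted p = 0.00313) and Slc25a33 (1.103; adjusted p = 0.00385), each over 2-fold. Slc25a21 (0.87), Slc25a37 (0.84), Slc25a3 (0.78), Slc25a44 (0.63) and Slc25a16 (0.52) were also higher on slide 1. Slc25a27 (-1.15), Slc25a2 (-0.86) and Slc25a29 (-0.74) were lower on slide 1. Ucp1 was also called lower there, but it was above background on all 3 arrays of slide 2 and on neither of slide 1. It passed the filter through those 3 arrays alone, so its call is no evidence of a slide difference. Only a bound can be given for Ucp1, at least 2.55-fold higher on slide 2 in these values. Ucp1 was not called with normexp, with quantile normalization, with both or in the authors' table. It lies in the dimmest bin, where 34.6% of features were called lower on slide 1. The chow mean lay between the means of the high-fat slides for 10 of the 13. Slide 1 was also scanned on another day than slides 2 and 3, so slide, scan day and any difference between those rats cannot be told apart. All 8 arrays gave 5991 differing features. Without high-fat array 1, 5 carriers and 2335 features differed, and without array 4, 6 and 3089. Without array 3 there were 7 and 3833, and without array 5 there were 8 and 3908. Without high-fat array 2 the carriers stayed at 13 while the features came to 5456. With 1 chow array left out there were 12 or 13 carriers and 5723 to 6394 features.

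The slide difference was not the same for both probes of a gene. For Slc25a42 the brighter probe gave 1.24 between slides and the dimmer -0.35. For Slc25a33 the values were 1.103 and -0.13, and for Slc25a44 they were 0.63 and -0.9998. Slc25a16 gave 0.52 and 0.018. Over all features the slide difference also varied with brightness. The dimmer probes of Slc25a42, Slc25a44 and Slc25a33 had mean signals in the ranges of bins 3, 4 and 6. The medians of all features there were -0.66, -0.51 and -0.15. Their brighter probes lay in bins 9, 9 and 8, with medians of 0.17, 0.17 and 0.093. The part of brightness in these probe differences was not tested. Among the 8 genes with both probes tested, the probes had the same sign in 4 for the slide difference, Slc25a16, Slc25a28 and Slc25a39 among them. For the diet difference they had the same sign in 3, Slc25a5, Slc25a28 and Slc25a39.

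**Figure D4:**
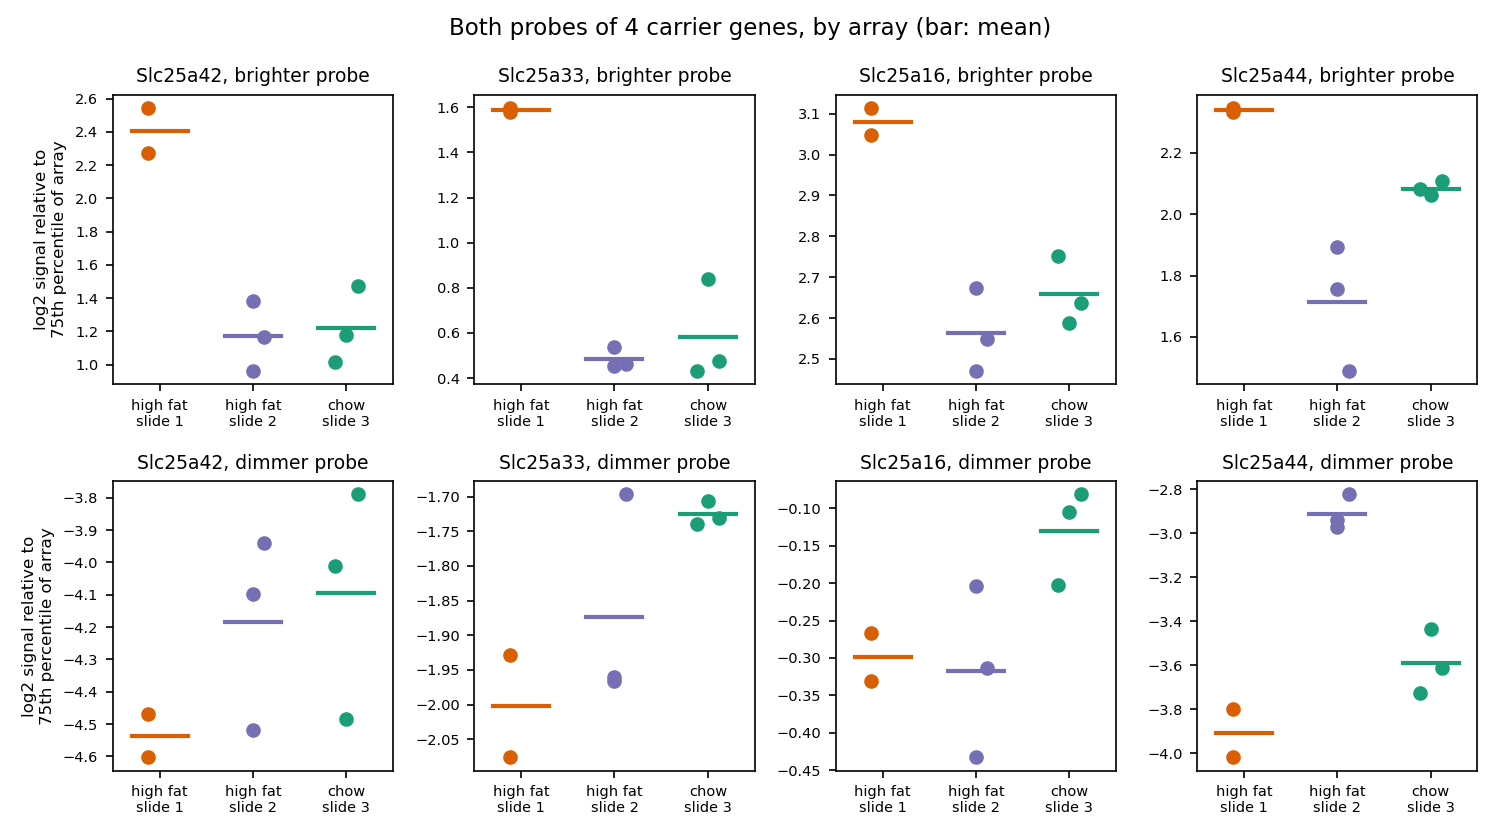
Log2 signal on each array, relative to the array's 75th percentile, for the brighter (top) and dimmer (bottom) probe of Slc25a42, Slc25a33, Slc25a16 and Slc25a44, by diet and slide. Points are arrays (2, 3 and 3) and bars are means; the brighter probes are higher on high-fat slide 1 than on slide 2, while the dimmer probes of Slc25a42, Slc25a33 and Slc25a44 are lower there and the 2 Slc25a16 slides differ by 0.018.

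Some carriers were called under other settings, each beside a higher share of all features. With the slide 1 arrays alone as the high-fat group, 4 carriers were called where 8.66% of all features were, with Slc25a22 at 0.76, Slc25a33 at 1.01 and Slc25a42 at 1.19 higher and Slc25a27 at -1.22 lower. With the slide 2 arrays alone, 5 were called where 12.7% of all features were, with Slc25a54 and Ucp1 higher and Slc25a11 at -0.56, Slc25a21 and Slc25a39 at -0.60 lower. Slc25a54 and Ucp1 were set against chow values that were not well above background. Both passed the filter through high-fat arrays alone, Ucp1 through those of slide 2, so these calls are no evidence of a diet difference. Each chow value was then taken as no lower than the dimmest detected probe of its array. In these values Ucp1 came to 1.08-fold higher and no fold above 1 remained for Slc25a54. Within an array the Ucp1 spots had an SD of 0.37 to 0.93 in log2 signal. No carrier was called in both of these comparisons, which share the chow arrays. Another background correction (normexp) with quantile normalization called Slc25a11 at -0.50 and Slc25a14 at -0.43 lower, where 9.25% of all features were called. In the authors' deposited value table Slc25a54 alone was called, at 1.13 higher against the same chow arrays, where 4.98% of all features were. Slc25a11 kept a negative difference under all 19 alternatives tried, from -0.63 to -0.43. Because its diets did not overlap, leaving out 1 array or 1 high-fat slide could not turn that sign. Its limma adjusted p was 0.692 with slide as a random block, 0.328 with a replicate block and 0.169 with normexp alone.

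Proteins that work with the carriers were read from fixed lists. Of 17 partner enzymes tested, 14 had negative differences, the median was -0.19, and 2 fell, where 0.490% of all features did. Gls2, the liver glutaminase that makes glutamate in the matrix, fell by 0.98 on the log2 scale (limma adjusted p = 0.0216), and Ass1, argininosuccinate synthase of the urea cycle, fell by 0.84 (adjusted p = 0.0351). Both calls were lost with slide as a random block (adjusted p = 0.363 for Gls2 and 0.534 for Ass1), where 0 of all features were called lower. Without chow array 1 or 3 they were lost as well, at 0.0649 and 0.0709 for Gls2 and 0.104 and 0.103 for Ass1. The slide 1 arrays alone also lost both (adjusted p = 0.0757 and 0.0903). Gls2 was lost without high-fat array 2 (0.0625) or 5 (0.0519). Ass1 was lost without any 1 high-fat array (0.0595 to 0.0939) and with normexp (0.114). Of 19 alternatives, Gls2 stayed called in 12 and Ass1 in 8. Got1, the cytosolic aspartate aminotransferase that shares the malate-aspartate shuttle with Slc25a11, differed by -1.04 (adjusted p = 0.0837). Cpt2, which acts on the acyl groups that Slc25a20 delivers, differed by -0.65 (adjusted p = 0.0832). Of 11 import components tested, 10 were negative and 0 were called, with a median of -0.24. Timm10b and Timm10, chaperones that escort carriers across the intermembrane space, differed by -0.69 (adjusted p = 0.0713) and -0.59 (adjusted p = 0.0835). The uncalled genes named here are among the most negative of their lists, in which Otc differed by 0.17 and Tomm70 by 0.28. Over all features the median diet difference was -0.14 in brightness bin 9 and -0.24 in bin 10. The part of brightness in the list medians was not tested. The 17 other mitochondrial transport proteins had 11 negative values, 0 calls and a median of -0.18, and the 7 regulators of mitochondrial genes had 3, 0 and 0.048. Beside these, the 8 hepatocyte markers had 8 negative values, 0 calls and a median of -0.35. The 4 endothelial, 3 cholangiocyte, 6 stellate cell and 5 lymphocyte markers tested also had 0 calls.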

How the data were processed

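Sample titles gave the groups and replicate numbers. Per the submitters' processing notes, Agilent Feature Extraction 11.0.1.1 read the scans. The deposited scanner files give a processed spot intensity, background-subtracted per the file headers, with median signal, median local background and other columns marking each spot as above background, saturated or outlying. The authors' deposited value table holds log2 values whose normalization is not given in the sources used here, and served as an alternative.

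Log2 processed signals were averaged over the non-outlier spots of each probe, and each array's 75th percentile was subtracted. Probes with at least 0.5 of spots well above background on at least 3 of 8 arrays were kept. Accessions gave 18005 probes a symbol through a RefSeq table, and the brightest probe stood for a gene. Diets were compared with limma 3.58.1 (R 4.3.3, lmFit and eBayes, two-sided) over all features, without a replicate block. The same fit was also run on simulated arrays that took the spread of each feature from these data. The number of arrays limits the precision.

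Same-numbered samples of both diets correlated at 0.045, 0.035 and 0.065 in their deviations, so the numbers were not taken as pairs. The normexp alternative (offset 50) used the median spot signal with its background, where the plan named the mean. Other alternatives were quantile normalization, other probe filters, slide as a random block (statmod 1.5.0), single slides, arrays left out and probes kept apart or averaged. Promoter windows are from RefSeq (GRCr8); gene positions are not used here, since the array design is on another assembly. Values of 1 carrier, which the counts include, are not reported here. Members and lists were chosen with earlier results of these data known. Per-array values are given for the 5 largest differences in each direction and for a fixed list of carriers.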

Additional observations from a re-analysis of the deposited data

Results flagged for a closer look

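High-fat array 4 stood apart for Slc25a34, a relative of the yeast oxaloacetate carrier. It read -2.62 where the other high-fat arrays read -1.91 to -1.72, and its gap to the nearest of them was 0.787 of the range, past Dixon's limit of 0.71 for 5 samples. The values of 24 carriers were tested this way and 1 passed the limit; chance flags about 1 in 20 such groups.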

How the results depend on the processing

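Of all features, 815 were called between diets. The number was 149 with normexp background correction (which also moved the median of all features to -0.29), 2115 with normexp and quantile normalization, 486 for probes above background on all 8 arrays, 84 with slide as a random block, 1979 and 2902 with the high-fat arrays of slide 1 or slide 2 alone, 4 with a replicate block, and 374 to 789 with 1 array left out. Carriers called were 0 when 1 array was left out, 2 with normexp and quantile normalization (Slc25a11 at -0.50 and Slc25a14 at -0.43, both lower), 4 with slide 1 alone (Slc25a22, Slc25a33 and Slc25a42 higher, Slc25a27 lower), 5 with slide 2 alone (Slc25a54 and Ucp1 higher, Slc25a11, Slc25a21 and Slc25a39 lower) and 1 with the authors' deposited log2 table (Slc25a54, 1.13). The replicate block called 0 carriers. The median over carriers was -0.18 to -0.056 with 1 array left out. Carriers called between the high-fat slides were 2 with normexp (1.09% of all features) and 5 to 13 with 1 array left out (10.2% to 28.0%).

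Among the carriers given array by array, signs turned as follows, and the cause was not tested. With normexp, Slc25a10 was 0.052, Slc25a15 -0.22, Slc25a18 -0.60, Slc25a3 0.37, Slc25a51 0.069, Slc25a54 -0.40, Ucp1 -0.62 and Ucp3 -0.53. Quantile normalization gave Slc25a3 0.11; with normexp added, Slc25a10 was 0.086, Slc25a3 0.46, Slc25a51 0.080 and Ucp1 -0.0022. Slide 1 alone gave Slc25a15 -0.036, Slc25a3 0.40 and Ucp1 -0.57, and slide 2 alone Slc25a22 -0.38, Slc25a42 -0.053 and Slc25a47 -0.26. The replicate block gave Slc25a15 -0.063 and Slc25a22 -0.00063. The authors' table gave Slc25a3 0.11 and Ucp1 -0.52. With 1 array left out, Slc25a1 ran from -0.39 to 0.13, Slc25a3 from -0.21 to 0.034, Slc25a22 from -0.10 to 0.23 and Slc25a47 from -0.13 to 0.29. Slc25a34 ran from -0.85 to -0.31 and Slc25a27 from -0.69 to -0.30. Of the carriers not given array by array, Slc25a2 was -0.49 with slide 1 alone, Slc25a16 was -0.095 with slide 2 alone, and Slc25a29, Slc25a32, Slc25a33, Slc25a35, Slc25a38, Slc25a44, Slc25a46 and Slc25a53 also turned under at least 1 alternative. The calls of Gls2 and Ass1 were lost with the replicate block (adjusted p = 0.163 and 0.192), as was that of Ckm (0.0521) and Acta1 (0.198). That setting called 4 of all features higher and 0 lower. Signal over background limits Slc25a15, Slc25a18, Slc25a53, Slc25a54, Ucp1 and Ucp3.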
